A study of Mus musculus with 10 samples.

Results

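Spats1, Hyal3, Cep41 and Alkbh4 are 4 genes with known roles in spermatocytes, sperm or cilia. They were followed in mouse testis through the probes whose names start with A_51_P and whose accession is a RefSeq mRNA of the gene. Each gene had 1 such probe, and each probe was printed as 10 spots on every array. These are 4 of the 45 genes that could be named through A_51_P probes on the arrays, which held 60706 mouse probes in all. The probes were A_51_P241577 for Spats1 (NM_027649), A_51_P390480 for Hyal3 (NM_178020), A_51_P212271 for Cep41 (NM_031998) and A_51_P209965 for Alkbh4 (NM_028070). The testes came from male C57BL/6J mice aged 3 months. In the testosterone group, the pregnant mothers had received 2.5 mg/kg testosterone under the skin each day from day 14 to day 19 after mating. The mothers of the control group had received the solvent, sesame oil with benzyl benzoate. Each group held 5 testes, called biological replicates in the labels, and the dam and litter of each were not among the details used here, so p-values measure the spread between these samples only. Each of the 10 arrays took both fractions of 1 testis after an immunoprecipitation with an antibody that is not named in the labels. The bound fraction (IP) was labelled with Cy5 and the supernatant (Sup) with Cy3.

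Sperm form from spermatocytes, which pass through meiosis, and spermatids, which build the acrosome and the flagellum. Hyaluronidases on sperm digest the hyaluronan that surrounds the egg, and the core of the flagellum is a modified cilium. Hyal3 encodes a member of the hyaluronidase family that is present in testis and sperm. Spats1 encodes a serine-rich protein that was named for its association with spermatogenesis. Alkbh4 encodes an AlkB family dioxygenase that removes a methyl group from actin and is needed for meiosis in spermatocytes. Cep41 encodes a protein of the centrosome and of the base of the cilium that is needed for glutamylation of ciliary tubulin.

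RFX transcription factors bind the X-box, a motif of paired inverted repeats, at genes of cilia and of the sperm flagellum. The X-box letters were therefore searched in the RefSeq promoter windows, which run from 250 bases before to 50 bases after a start in GRCm38.p6. The windows used were 1 each for Spats1, Hyal3 and Cep41 and 3 for Alkbh4. The pair GTTGCC and GGCAAC with 0 to 3 bases between them, which reads the same on both strands, was found in Cep41 and in 0.161% of all 32851 windows. With 1 base free in each repeat (GTTGNC and GNCAAC), Spats1 also held a match just past its start, and so did 0.298% of all windows. That looser form was chosen after the Spats1 sequence was seen. The windows of Hyal3 and Alkbh4 held neither. The cyclic AMP response element TGACGTCA (1.79% of windows) and the androgen receptor element, AGAACA and TGTTCT with 3 bases between them (0.00913% of windows), searched on both strands, had no match in the windows of the 4 genes. These matches are letters only and were not tested as binding sites. Both matches are given here because the other windows held none, with the match in capitals and its flanks in lower case, at chr6:30693836-30693910 on the minus strand for Cep41 and chr17:45474915-45474944 on the minus strand for Spats1.
Cep41: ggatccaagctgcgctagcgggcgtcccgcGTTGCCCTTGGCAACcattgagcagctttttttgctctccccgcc
Spats1: agtggcgcGTTGTCCTGGCAACcctggacc

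On 10 of 10 arrays, both channels of all 4 probes stood well above background, and 0 of their spots were saturated. Outlier flags removed 5 of 100 spots for Spats1, 12 for Hyal3, 5 for Cep41 and 7 for Alkbh4. The file headers give 3 slides and 2 scans. Control replicates 1 to 4 lay on slide 1, control replicate 5 and testosterone replicates 1 to 3 on slide 2, and testosterone replicates 4 and 5 on slide 3, which was scanned separately. On these 2 arrays 61.6% and 63.7% of mouse probes were well above background in IP, against 71.3% to 75.6% on the other 8. Control replicate 2 also stood apart. It had the lowest or the highest Sup level of the 5 controls for 70.1% of probes, against 30.4% to 36.0% for each of the other controls. Tests of the 4 genes are therefore given with and without the 2 separately scanned arrays, and without control replicate 2 for the differences it moved most. Only A_51_P probes were looked up for a gene name. No gene of the 8 lists of testis and other cell type markers was among them, so the makeup of the tissue was not checked. In whole testis, fewer cells of a type and less RNA per cell cannot be told apart.

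Levels below are log2 values per channel, with 0 at the 75th percentile of that channel on the array. A level says how a transcript stood among all probes of the same fraction, not how much RNA the fraction held. Ratios are log2 IP over Sup with the array median at 0. Group differences are testosterone minus control. They were tested with limma over all probes detected in the fraction, and no difference of the 4 genes passed an adjusted p of 0.05.

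Hyal3 had means after testosterone 1.39-fold lower in Sup and 1.37-fold lower in IP. These were the largest differences of the 4 genes with all arrays and the processed signals, but not with normexp background correction. The Sup level of Hyal3 was -2.19, -1.72, -2.27, -2.04 and -2.17 in control replicates 1 to 5. After testosterone it was -2.41, -2.53, -2.51, -2.59 and -2.72 in replicates 1 to 5. The highest testosterone array lay below the lowest control array. The IP level was -2.03, -1.92, -2.10, -1.84 and -1.96 in controls and -2.41, -2.47, -2.31, -2.35 and -2.61 after testosterone. The groups did not overlap in this fraction either. Of the separately scanned arrays, replicate 5 was the lowest in both fractions, and replicate 4 lay among the other testosterone arrays in IP. Controls averaged -2.08 ± 0.217 (SD, n = 5) in Sup, and testes of the testosterone group -2.55 ± 0.112 (SD, n = 5). The difference was -0.48 ± 0.124 (SE), with a 95% interval from -0.74 to -0.21 and a limma adjusted p of 0.443. In IP the means were -1.97 ± 0.100 (SD, n = 5) and -2.43 ± 0.118 (SD, n = 5). That difference was -0.46 ± 0.094 (SE), from -0.66 to -0.25, with a limma adjusted p of 0.247. Its unadjusted p of 0.00042 was smaller than that of all but 0.167% of the 44318 probes tested in IP. All 5 testosterone arrays were below the control mean in both fractions, as for 18.4% of all probes in Sup and 15.9% in IP.

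Without the separately scanned arrays the difference of Hyal3 was -0.41 ± 0.140 (SE) in Sup and -0.42 ± 0.098 (SE) in IP, with limma adjusted p-values of 0.969 and 0.301. The groups still did not overlap. Within slide 2, which held control replicate 5 and 3 testosterone arrays, the differences were -0.31 in Sup and -0.43 in IP. With control replicate 2 left out as well as the separate scan they were -0.32 and -0.41. Leaving out control replicate 2 alone gave -0.385 in Sup, where Alkbh4 was then at -0.389. The spots of Hyal3 were dim, and the difference depended on how background was handled. Its uncorrected spot brightness in Sup was 82 to 111 in controls and 72.5 to 78.5 after testosterone, over a local background of 12 to 15. In IP the uncorrected values overlapped, at 57 to 69.5 in controls and 39.3 to 65.5 after testosterone, over a background of 15 to 18. These uncorrected values are not scaled between arrays, so the brightness of each array enters them as well. The control at 57 was replicate 1, the dimmest control in uncorrected IP for all 4 genes. With normexp background correction and an offset of 50, which compresses dim signals, the differences were -0.16 in Sup and -0.11 in IP, with limma adjusted p-values of 0.601 and 0.787. Those of Alkbh4 were then larger, at -0.32 in Sup and -0.23 in IP. So were those of Spats1, at -0.19 in Sup and -0.12 in IP. The difference of Cep41 was larger than that of Hyal3 in IP, at -0.17, but smaller in Sup, at -0.014.

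Alkbh4 had means 1.29-fold lower in Sup and 1.23-fold lower in IP after testosterone, and the difference was smaller without the separately scanned arrays. Its Sup level was 0.96, 0.95, 1.24, 0.99 and 1.10 in control replicates 1 to 5, and 0.77, 0.93, 0.80, 0.36 and 0.54 in testosterone replicates 1 to 5. The groups did not overlap in Sup, although testosterone replicate 2 was only just below the lowest control. The IP level was 0.42, 0.31, 0.67, 0.50 and 0.49 in controls and 0.26, 0.34, 0.38, -0.0054 and -0.090 after testosterone. In IP the groups overlapped, and replicates 4 and 5 were the lowest of the group in both fractions. The Sup means were 1.05 ± 0.125 (SD, n = 5) and 0.68 ± 0.228 (SD, n = 5). The difference was -0.36 ± 0.128 (SE), from -0.64 to -0.09, with a limma adjusted p of 0.443. In IP the means were 0.48 ± 0.131 (SD, n = 5) and 0.18 ± 0.212 (SD, n = 5), and the difference was -0.30 ± 0.119 (SE), from -0.56 to -0.04, with a limma adjusted p of 0.336. Without the separate scan, the differences were -0.21 ± 0.113 (SE) in Sup and -0.15 ± 0.105 (SE) in IP, and both 95% intervals then included 0. Within slide 2 they were -0.26 and -0.17.

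Spats1 had means 1.26-fold lower in Sup and 1.22-fold lower in IP after testosterone, and in IP the groups had nearly the same mean without the separately scanned arrays. Its IP level was -0.71, -0.67, -0.80, -0.87 and -0.92 in control replicates 1 to 5, and -0.78, -0.85, -0.77, -1.36 and -1.63 in testosterone replicates 1 to 5. Testosterone replicates 1 to 3 lay inside the control range and replicates 4 and 5 far below it. The Sup level was -0.76, -0.25, -0.68, -1.07 and -0.97 in controls and -0.84, -1.03, -0.93, -1.29 and -1.29 after testosterone. Here control replicate 2 was high, replicates 4 and 5 of the testosterone group were low, and the remaining arrays overlapped. The Sup means were -0.75 ± 0.317 (SD, n = 5) and -1.08 ± 0.207 (SD, n = 5). They differed by -0.33 ± 0.163 (SE; limma adjusted p = 0.444). In IP they were -0.79 ± 0.104 (SD, n = 5) and -1.08 ± 0.395 (SD, n = 5), and differed by -0.28 ± 0.169 (SE; limma adjusted p = 0.434). Without the separate scan the IP difference was -0.0039 ± 0.097 (SE), from -0.22 to 0.21. The Sup difference was then -0.19 ± 0.179 (SE), and -0.065 with control replicate 2 left out too. Leaving out control replicate 2 alone gave -0.21 in Sup. Within slide 2 the signs turned, to 0.036 in Sup and 0.12 in IP.

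Cep41 had means after testosterone 1.06-fold lower in Sup and 1.12-fold lower in IP, the smallest differences in level of the 4 genes with all arrays and the processed signals. The IP difference of Spats1 was smaller without the separate scan, and within slide 2 so were those of Spats1 in both fractions and of Alkbh4 in IP. The Sup level of Cep41 was -0.87, -1.48, -0.76, -0.93 and -0.87 in control replicates 1 to 5 and -1.10, -1.04, -1.11, -0.94 and -1.14 in testosterone replicates 1 to 5. Control replicate 2 was the lowest of all 10 arrays, and the groups overlapped in Sup. The next lowest control, at -0.93, lay close to the highest testosterone array, at -0.94. How many of all probes separate without control replicate 2 was not computed. The IP level was 1.02, 1.23, 1.30, 1.18 and 1.36 in controls and 1.02, 1.16, 1.09, 1.03 and 0.97 after testosterone. Control replicate 1 lay among the testosterone arrays in this fraction. The Sup difference was -0.085 ± 0.138 (SE), from -0.39 to 0.22, with a limma adjusted p of 0.761. The IP difference was -0.16 ± 0.092 (SE), from -0.37 to 0.04, with a limma adjusted p of 0.414. Without control replicate 2 the Sup difference was -0.21 (limma adjusted p = 0.584), and within slide 2 the differences were -0.22 in Sup and -0.27 in IP. Without the separate scan they were -0.10 ± 0.165 (SE) and -0.13 ± 0.104 (SE). In the levels of Cep41, replicates 4 and 5 of the testosterone group lay close to the other testosterone arrays.

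**Figure D1:**
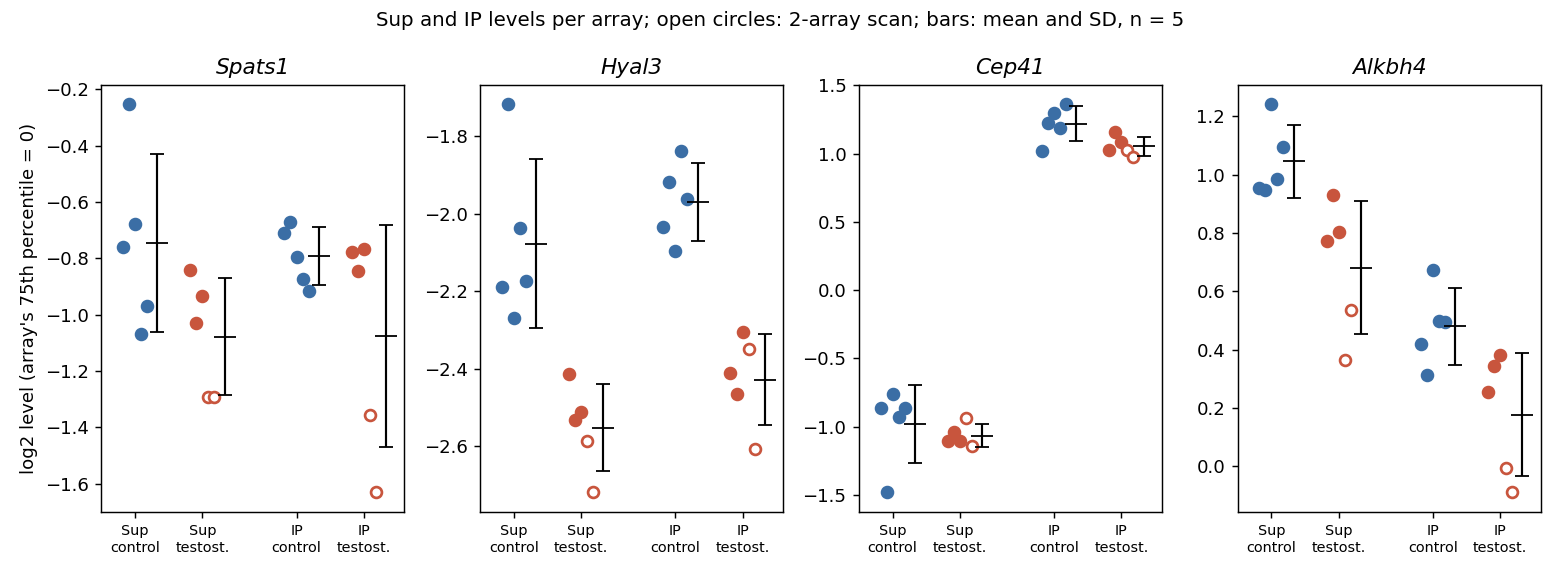
Log2 levels of the 4 genes in Sup and IP on each array, where 0 is the 75th percentile of the channel on that array, with controls in blue, testosterone in red, open circles for the 2 separately scanned arrays and bars for mean and SD (n = 5). For Hyal3 the testosterone arrays lie below all controls in both fractions, and for Spats1 in IP only the open circles, at -1.36 and -1.63, lie below the controls.

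The 4 genes were then set against all probes. All 4 had lower means after testosterone in Sup, as did 57.2% of the 44627 probes tested there, and in IP, as did 55.8% of 44318 probes. The median difference of the 4 was -0.35 in Sup and -0.29 in IP, against -0.05 and -0.03 over all tested probes. The median of the 4 without the separate scan was -0.20 in Sup and -0.14 in IP, against -0.04 in both over all probes. In Sup, Hyal3 and Alkbh4 had an unadjusted p under 0.05, at 0.00234 and 0.0145, as did 11.2% of probes (4995 probes, and 7.65% with testosterone lower), and 0% of probes passed limma's adjusted threshold. In IP the same genes had an unadjusted p under 0.05, at 0.00042 and 0.0265, as did 13.8% of probes (6120 probes, and 8.97% with testosterone lower), and 1 probe passed (0.00226% of probes), which was none of the 4. Groups did not overlap, with testosterone lower, for Hyal3 and Alkbh4 in Sup, as for 1.76% of probes, and for Hyal3 in IP, as for 2.17%. Without the separate scan the means of all 4 were again lower, against 59.4% of probes in Sup and 58.1% in IP. Groups then did not overlap for the same genes in the same fractions, against 3.32% of probes in Sup and 4.91% in IP. Hyal3 alone then had an unadjusted p under 0.05 in each fraction, against 4.17% of probes in Sup and 9.35% in IP, and 0% and 0.00666% of probes passed limma's adjusted threshold. With the slide as a block, which leaves only slide 2 to compare the groups, the unadjusted p in Sup was 0.188 for Hyal3 and 0.187 for Alkbh4, and 1011 of 44228 probes were under 0.05. In IP it was 0.0305 for Hyal3 and 0.348 for Alkbh4, with 2197 of 43920 probes under 0.05. Scaling to the spike-in RNA moved the median difference over all IP probes from -0.03 to -0.24. The IP differences under that scaling were -0.67 for Hyal3, -0.52 for Alkbh4, -0.50 for Spats1 and -0.38 for Cep41, and all 4 stayed below that median.

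**Figure D2:**
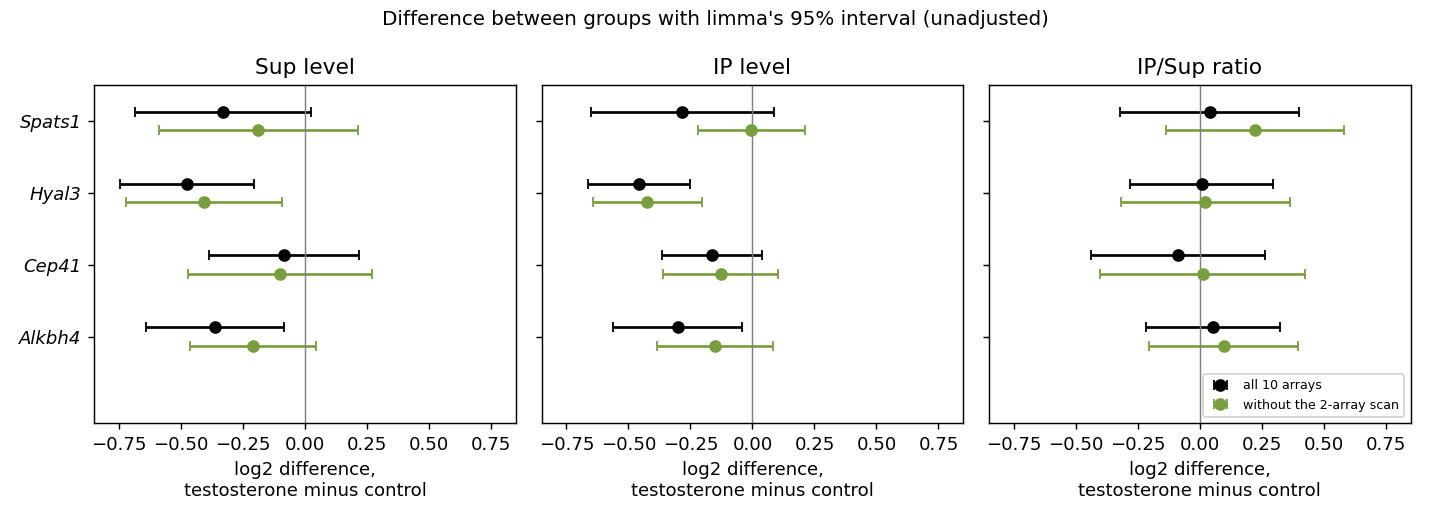
Testosterone minus control in log2 units for Sup level, IP level and IP/Sup ratio, with limma's unadjusted 95% intervals, for all 10 arrays (black) and without the 2 separately scanned arrays (green). For Hyal3 the intervals of both levels stay below 0 in both cases, and for Alkbh4 only with all arrays, while all intervals of the ratio include 0.

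The IP/Sup ratio separated the genes more clearly than the treatment did. Cep41 lay on the IP side, 4.53-fold above the array median. Its log2 ratio was 1.88, 2.73, 2.15, 2.13 and 2.24 in control replicates 1 to 5 and 2.23, 2.18, 2.29, 1.93 and 2.04 in testosterone replicates 1 to 5. All 10 arrays were above the highest of the 21 spike-in probes, at 1.40, each spike-in taken as its mean over the 10 arrays. The range of the spike-ins on single arrays was not computed. Equal amounts of these spike-ins had been added to both fractions, yet their mean ratios ran from -1.56 to 1.40. Of the 21 spike-in probes, 42.9% lay more than 2-fold from the array median, so a 2-fold ratio alone does not show that a transcript favoured a fraction. No dyes were swapped, so that part of a ratio can belong to the probe and the dyes. The mean ratio of Cep41 was 2.18 ± 0.082 (SE, n = 10; limma adjusted p = 1.08e-11), higher than that of 93.5% of the 41359 probes tested, of which 19.5% lay on the IP side by limma's adjusted threshold and at least a 2-fold ratio.

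Alkbh4 lay somewhat on the Sup side, with log2 ratios of -0.55, -0.62, -0.48, -0.47 and -0.59 in controls and -0.41, -0.60, -0.32, -0.40 and -0.71 after testosterone. All 10 arrays were below 0, and how many of all probes were so was not computed. The mean of -0.51 ± 0.063 (SE, n = 10) differed from the array median (limma adjusted p = 3.39e-06) but was under 2-fold, a size that 21.1% of probes reached on the Sup side, and lay inside the range of the spike-ins. A small p was common in this test, where 35106 of 41359 probes had an unadjusted limma p under 0.05. Hyal3 had ratios of 0.14, -0.18, 0.26, 0.22 and 0.22 in controls and 0.11, 0.05, 0.31, 0.21 and 0.03 after testosterone. Its mean of 0.14 ± 0.067 (SE, n = 10) did not pass (limma adjusted p = 0.0713), and control replicate 2 was the only array below 0. Spats1 had ratios of 0.04, -0.40, -0.02, 0.21 and 0.07 in controls and 0.17, 0.17, 0.27, -0.10 and -0.42 after testosterone. Its mean was -0.0010 ± 0.084 (SE, n = 10; limma adjusted p = 0.991), from -0.18 to 0.18, so that it lay near the array median. The lowest arrays of Spats1 were control replicate 2 and testosterone replicate 5. The mean ratios without the separate scan were 2.23 ± 0.094 (SE, n = 8) for Cep41 and -0.49 ± 0.068 (SE, n = 8) for Alkbh4. They were 0.14 ± 0.077 (SE, n = 8) for Hyal3 and 0.091 ± 0.081 (SE, n = 8) for Spats1. In the Cep41 ratio, testosterone replicates 4 and 5 were the lowest of their group.

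**Figure D3:**
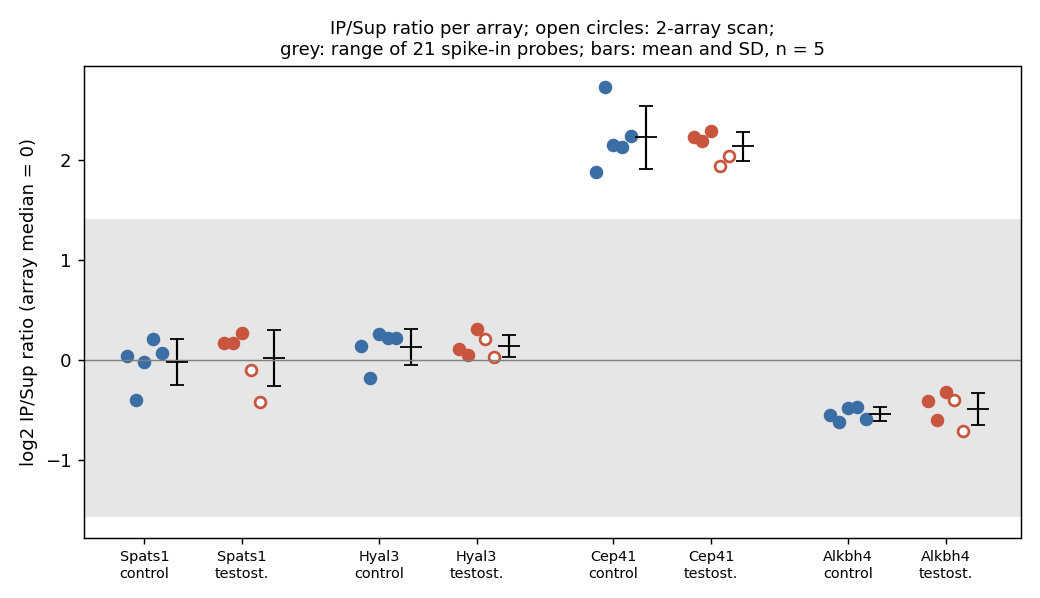
Log2 IP/Sup ratio of the 4 genes on each array, with the array median at 0, controls in blue, testosterone in red, open circles for the 2 separately scanned arrays, bars for mean and SD (n = 5) and a grey band for the range of 21 spike-in probes. Cep41 lies above the band on all arrays, and the other 3 genes lie inside it.

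The ratio did not differ between the groups beyond the spread between arrays for these genes. A difference in the ratio tests whether IP and Sup changed unequally. It was 0.0083 ± 0.133 (SE) for Hyal3, with a 95% interval from -0.28 to 0.30. It was 0.040 ± 0.167 (SE) for Spats1, from -0.32 to 0.40, and 0.053 ± 0.126 (SE) for Alkbh4, from -0.22 to 0.33. For Cep41, the 1 of the 4 with a lower mean after testosterone (53.4% of probes had one), it was -0.088 ± 0.163 (SE), from -0.44 to 0.26. The limma adjusted p-values lay between 0.909 for Cep41 and 0.992 for Hyal3, and 0% of the 41359 probes passed, with 2499 (6.04%) at an unadjusted p under 0.05. Without the separate scan the differences were 0.22 ± 0.162 (SE) for Spats1, 0.097 ± 0.136 (SE) for Alkbh4, 0.023 ± 0.155 (SE) for Hyal3 and 0.012 ± 0.188 (SE) for Cep41. Of 42032 probes, 0% then passed limma's adjusted threshold, with 1359 (3.23%) at an unadjusted p under 0.05.

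The 10 spots of each probe show how well a single array measured these genes. For Alkbh4 in Sup, the SD among spots was 0.044 log2 units, which puts an SE of 0.014 on an array's value, against an SD of 0.184 between arrays of a group. For Spats1 the SE from spots was 0.023 in Sup and 0.039 in IP, and the SD between arrays was 0.268 and 0.289. Over Sup and IP, the spread of Spats1 and Alkbh4 between arrays was thus 4.54 to 12.9 times the spot error. Cep41 lay in the same range, at 5.91 times in Sup and 4.94 times in IP. Hyal3 had a ratio of 4.79 in Sup, but a far lower one in IP. Its spots had an SD of 0.256, the SE of an array's value was 0.086, and the SD between arrays was 0.109, or 1.27 times that error. For some genes and fractions, part of the spread between arrays lay in the arrays that stood apart. The SD between arrays of Spats1 in IP without the separate scan was 0.088, or 2.57 times the spot error, that of Alkbh4 in Sup 0.113, or 7.60 times, and that of Alkbh4 in IP 0.113, or 3.01 times. With control replicate 2 left out as well, the SD of Cep41 in Sup was 0.060, or 1.63 times the spot error, that of Hyal3 in Sup 0.085, or 2.25 times, and that of Spats1 in Sup 0.152, or 6.44 times. Other values did not fall in this way. Without the separate scan alone, the SD of Cep41 was 0.235 in Sup and 0.112 in IP, against 0.211 and 0.104 with all arrays. That of Hyal3 was 0.181 in Sup, against 0.173, but 0.094 in IP, against 0.109. That of Spats1 in Sup was 0.264, against 0.268. With control replicate 2 left out as well, the SD of Cep41 in IP was 0.123, or 7.15 times the spot error. Testosterone replicate 4 had the widest scatter of Hyal3 spots in IP, with an SD of 0.554.

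**Figure D4:**
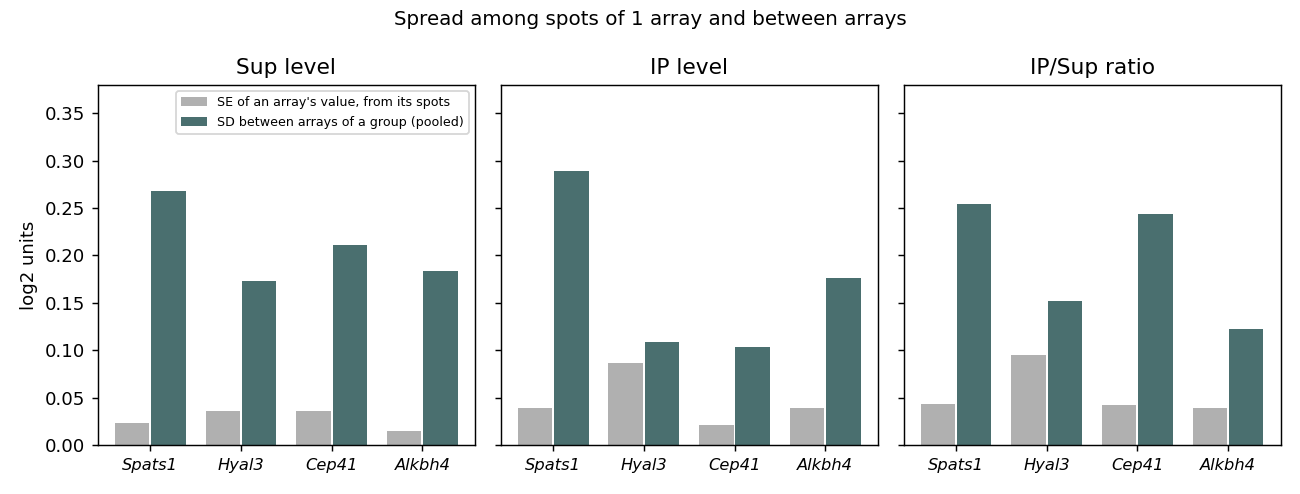
Standard error of an array's value from its spots (grey) and pooled SD between arrays of a group (green), in log2 units, for the 4 genes in Sup, IP and the ratio. With all 10 arrays, the array spread is several times the spot error except for Hyal3 in IP, at 0.109 and 0.086, and in the ratio, at 0.151 and 0.095.

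Of the 5 lists of germ cell, hyaluronan, cilium, AlkB and Wnt genes, Actb, which encodes the cytoplasmic beta-actin that is a substrate of actin-modifying enzymes, was the only named gene besides these 4. It did not pass in Sup, at 0.022 ± 0.198 (SE), in IP, at -0.25 ± 0.268 (SE), or in the ratio, at -0.28 ± 0.160 (SE), with limma adjusted p-values of 0.960, 0.657 and 0.794. The genes most like each of the 4 over the arrays were then picked among 37 other named genes, the rest of the 4 included, by the root mean square distance between their centred Sup and IP levels (20 values). For Spats1 these were Mbp, the gene of myelin basic protein, at a distance of 0.14, and Apoe, the lipid carrier apolipoprotein E, at 0.17, against a median of 0.30 over the 37. For Alkbh4 they were Gsdmd, the gene of the pore-forming gasdermin D, at 0.13, and Taf1a, a subunit of an RNA polymerase I initiation factor, at 0.14, against a median of 0.24. For Hyal3 they were Taf1a at 0.19 and Cpt1a, the carnitine palmitoyltransferase of mitochondria, at 0.20, against a median of 0.30. For Cep41 the nearest was Nup50, a nuclear pore protein, at 0.13, against a median of 0.27. Cep41 itself varied little, and a flat profile would lie at 0.16 from it. Between the groups, Nup50 differed by 0.15 ± 0.131 (SE) in Sup, and Cep41 by -0.085 ± 0.138 (SE). Mbp, Apoe, Gsdmd, Taf1a and Cpt1a had lower means after testosterone in both fractions, and none passed. The differences were -0.32 in Sup and -0.29 in IP for Mbp, and -0.33 and -0.22 for Gsdmd. The distance itself takes in the group difference. Of the A_51_P probes tested, 26 of 43 had lower means after testosterone in Sup and 30 of 41 in IP. None of the genes named here was another of the 4. All of these distances are over the 10 arrays, the separate scan and control replicate 2 included, and share their scaling.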

How the data were processed

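Arrays were grouped by their titles. The submitters' processing notes name Agilent Feature Extraction 11.0.1.1 for spot extraction. Per the file headers, the deposited processed signal is a spot intensity after background subtraction, detrending and dye normalization, while median spot and background intensity are uncorrected. Other deposited columns are flags of 0 or 1. The authors' deposited value table is on a log2 scale. Its 44264 rows equal the log2 Cy5 processed signal minus a constant per array of unknown origin (within 0.001), and none is a probe of these genes, so it was not used.

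Control and outlier spots were left out, and log2 values of a probe's spots were averaged. Probes had to be well above background in at least 0.5 of their spots on at least 5 of 10 arrays, in the channel tested (in both for the ratio). Differences between groups were tested two-sided in limma 3.58.1 (R 4.3.3), with Benjamini-Hochberg adjustment over all probes tested; the functions were tested on simulated data. Genes were named by looking up the accession, less its version, of each A_51_P probe in RefSeq's GRCm38.p6 genes. Probes with other names were not looked up. The genes, lists and rules were chosen with earlier results of these data known. The number of arrays limits the precision. The genes most like each member were the 2 with the smallest distance, of which 1 is not reported here. The alternatives tried were background correction, filters, scaling, left-out arrays and blocks for slide, scan and replicate number.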

Additional observations from a re-analysis of the deposited data

Results flagged for a closer look

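Of 24 groups of 5 values, 2 had an array far from the other 4, and chance alone gives about 1 in 20. Both were control replicate 2. Its log2 IP/Sup ratio of Hyal3 was -0.18, with the nearest other control at 0.14. Its Sup level of Cep41 was -1.48, with the nearest other control at -0.93.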

How the results depend on the processing

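No difference of the 4 genes passed, or came to pass, under any alternative run, and Cep41 and Alkbh4 kept their side of the ratio. The size of these ratios depended on how background was handled. With normexp the mean log2 ratio was 1.68 for Cep41, against 2.18 as reported, and -0.33 for Alkbh4, against -0.51. Of 344 recomputed values, 318 kept direction and side, and 26, whose main values lay within their error of 0 except the Spats1 Sup and IP differences, changed sign. For the Spats1 Sup and IP differences these were 0.036 and 0.12 with the slide as a block and within slide 2, and 0.027 in IP without the separate scan and control replicate 2. The Hyal3 ratio difference was -0.020 with normexp, -0.065 with the slide as a block and within slide 2, and -0.056 without the separate scan and control replicate 2. The Cep41 ratio difference was 0.012 without the separate scan and with the scan as a block, and 0.14 without control replicate 2 as well. The Spats1 mean ratio was 0.039 with normexp, 0.041 with loess, 0.17 with spike-in scaling, 0.091 without the separate scan and 0.14 without control replicate 2 as well. With single arrays left out, the ratio differences ran from -0.055 to 0.15 for Spats1, -0.071 to 0.041 for Hyal3 and -0.17 to 0.038 for Cep41, and the Spats1 mean ratio from -0.032 to 0.053. The cause was not tested. The mean ratio of Hyal3, under 2-fold throughout, had a limma adjusted p of 0.0249 with loess, 0.00463 with spike-in scaling and 0.0147 without control replicate 2. It was 0.0209 without the separate scan and control replicate 2. With the replicate block, Hyal3 stayed at -0.48 in Sup and -0.46 in IP (limma adjusted p = 0.347 and 0.263). Deviations of same-numbered arrays were weakly correlated (r from -0.19 to 0.18 across probes), which does not settle whether the numbers pair the samples. Under the replicate block, 5987 Sup probes and 6680 IP probes had an unadjusted limma p under 0.05, against 4995 and 6120 as reported. In the ratio 2808 did, against 2499. Spats1 in Sup was then at 0.0375, against 0.0639. The count of probes that passed ran from 0 to 3 in IP (1 as reported) and from 0 to 2 in Sup (0 as reported). The alternative with the authors' value table was not run, since it holds 0 rows of these probes. The dim signal of Hyal3 over background, the few arrays and the overlap of slide and group all limit these results. The spread and the median difference of the 4 genes with arrays left out were added after seeing the data.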
